A study of Homo sapiens with 3 samples.

Results

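The mRNAs of the cytosolic ribosomal proteins were followed through 3 libraries of 95D, an established human lung cancer cell line whose genotype is WT in the labels. Members were the genes in both blocks of the deposited table whose symbol has the form RPL or RPS with a number, or is RPLP0, RPLP1, RPLP2, RPSA or FAU, and whose type is protein coding in GENCODE release 29, with pseudogenes left out. The rule found 60 of the 5932 listed genes. Of these, 35 code for proteins of the large ribosomal subunit, 23 for proteins of the small subunit, and RPL7L1 and RPL22L1 are paralogs of subunit proteins. In the annotation 87 genes meet the rule, and 20 of the 79 subunit genes, among them RPL36A, RPL23A, RPL12 and RPS27A, are not analysed here. RPL36AL, also a ribosomal protein gene, has a symbol outside the rule.

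Cells of the glucose-deficient culture spent 48 h in DMEM lacking glucose, and cells of the glutamine-deficient culture spent 48 h in DMEM lacking glutamine. Both media held 10% dialyzed fetal bovine serum and followed 24 h of seeding in complete medium. The control culture was kept for 48 h under control conditions, and no source used here states whether its serum was dialyzed. As the labels' protocol has it, lysates were offered to 50 pmol of biotinylated full-length DAMER, a long non-coding RNA, and the bound RNA was depleted of ribosomal RNA and sequenced. The protocol gives this capture for every culture, while the sample titles say RNA-Seq, so the labels do not settle whether the control library is a capture. There was 1 library per culture, so no test between cultures and no p-value was possible. A lower value could reflect fewer cells, less of the mRNA per cell or less of it captured. Since values are scaled to all reads of a library, it could also reflect more reads taken by other RNAs. These cannot be told apart here.

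A ribosome joins a small subunit, which reads the mRNA, to a large subunit, which forms the peptide bonds, and each ribosomal protein is normally made from its own gene in step with the others. In mammalian cells most ribosomal protein mRNAs start with a terminal oligopyrimidine tract (5′ TOP), a C at the cap followed by a run of C and U. Through this tract the kinase complex mTORC1 and the cap-binding protein LARP1 tie the translation of these mRNAs to the supply of nutrients. Ribosomal protein genes have also left many processed pseudogenes, intronless copies of their mRNAs, in the human genome.

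The values are in RPM, in which each library's reads are put on the same total, and the authors give them for each listed region, and a gene's value is the sum over its regions. They moved in fixed steps, from which fragments, taken to be read pairs, were recovered to the nearest 0.5. The totals were 18775818 under glucose deficiency, 18301607 under glutamine deficiency and 3781862 in the control library, where 63.3% of values were whole fragments. ATF4, a transcription factor of the stress response, and its pseudogenes took nearly all reads of the deprived libraries. Outside that family lay 0.0689% of the glucose-deficient fragments and 0.0790% of the glutamine-deficient fragments, against 99.97% of the control fragments. A count of 0 fragments allows up to 3 fragments, which is 0.160 RPM in the glucose-deficient, 0.164 RPM in the glutamine-deficient and 0.793 RPM in the control library. Of 4 mesenchymal cell markers 2 were listed. VIM had 0.107, 0.109 and 77.7 RPM in the glucose-deficient, glutamine-deficient and control libraries, and ZEB1 had 0.0266, 0.0273 and 5.16 RPM. Of 6 epithelial markers 1 was listed, the keratin KRT8, with 0.0266, 0.0273 and 6.48 RPM in the same order. Markers of fibroblasts, endothelium and red cells were not analysed here, and of 5 leukocyte markers 1 was listed, CSF1R, with 0.0266, 0.0273 and 10.3 RPM in the same order. The whole CSF1R value came from 1 region that was also assigned to RPL7P1, a ribosomal protein pseudogene, so reads of CSF1R itself cannot be told apart from those of the copy. Values at or below 0.109 RPM in these sentences stand for 0 fragments, because the authors added 0.5 fragment to each region.

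The start of the mRNA is shown first, because it is the feature by which these transcripts respond to nutrients. RefSeq promoter windows (GRCh38.p14) were at hand for 49 of the 60 members, with 250 bases before and 50 bases from each annotated start. A C at the start followed by at least 4 C or T, read on the strand of the gene only, stood in a window of 36 of these 49 members, or 73.5%. Of all 35116 windows 4.07% held it, and of the 3594 other listed protein-coding genes with a window 8.04% did. By subunit it was found in 21 of 30 large subunit genes and 14 of 17 small subunit genes. Of the mRNAs outside the ribosomal proteins that are known to carry a 5′ TOP, 11 of 14 had it, against 4 of 33 ribosome assembly factors and 4 of 40 mitochondrial ribosomal protein genes.

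The lines that follow run from 10 bases before the annotated start through the first 20 transcribed bases, with the unbroken run of C and T from the start in capitals. They give the 8 members that had fragments in the glucose-deficient library and a window, and RPL7A, whose run of 16 bases was the longest.
RPS4X (chrX:72277229-72277258, minus strand): ctccagccccaatttctacgcgcaccggaa
RPL11 (chr1:23691796-23691825, plus strand): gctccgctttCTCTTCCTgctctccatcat
RPS3 (chr11:75399508-75399537, plus strand): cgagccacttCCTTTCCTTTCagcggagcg
RPLP1 (chr15:69452808-69452837, plus strand): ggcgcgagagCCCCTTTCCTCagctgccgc
RPL36 (chr19:5690285-5690314, plus strand): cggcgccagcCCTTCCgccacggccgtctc
RPL37A (chr2:216498834-216498863, plus strand): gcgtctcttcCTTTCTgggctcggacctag
RPL27A (chr11:8682782-8682811, plus strand): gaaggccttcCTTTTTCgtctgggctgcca
RPL27 (chr17:42998409-42998438, plus strand): gtgaaaggttagcggaagtgtccttctttc
RPL7A (chr9:133348208-133348237, plus strand): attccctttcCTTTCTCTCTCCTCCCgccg
The runs of the 36 members were 5 to 16 bases long, with a median of 8. In RPS4X and RPL27 the annotated start opened no such run, which says only that these letters do not begin at that base. Members with the run had a median control level of 6.87 RPM per kb of exon, and the 13 members without it 7.61 RPM per kb. Fragments in the glucose-deficient library were found for 6 of the 36 members with the run and for 2 of the 13 without it, beside 9.07% of all genes.

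In the control library the 60 members together had 3425 RPM, or 0.341% of its fragments. This counts listed regions only, which held 22.1% of the control fragments, against 99.9% of the fragments in each deprived library. RPL8, a large subunit protein at the catalytic centre (chromosome 8, 144789765 to 144792587, minus strand), was among the highest at 365 RPM. RPS4X, the X-linked gene of a small subunit protein, had 197 RPM. RPL11, which with RPL5 and the 5S ribosomal RNA can bind the ubiquitin ligase MDM2, had 177 RPM, and RPS25, a small subunit protein, had 174 RPM. RPS3, at the channel through which the mRNA enters, had 146 RPM, and RPS2, its neighbour there, had 144 RPM. RPLP1, of the flexible stalk that recruits elongation factors, had 113 RPM. RPL36 and the paralog RPL7L1 had 94.9 and 94.7 RPM, and the 10 highest members held 56.2% of the summed level.

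The other end of the range was far lower. RPL22L1, a paralog of RPL22, had 6.48 RPM. RPL7A and RPS3A each had 5.16 RPM, and RPS10, a site of ubiquitin addition on stalled ribosomes, had 4.63 RPM. The median over the 60 members was 33.5 RPM. RPS10 rested on 17 control fragments and the median member on 126. Of the 60 members, 26 had 1 listed region, 19 had 2, 9 had 3 and 6 had 4, so a gene's level also counts how many of its regions were listed.

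Levels of different genes were compared per kilobase of exon, since longer mRNAs give more fragments. Exon length was the union of all annotated exons, which can exceed the length of the mRNA. RPL8 then led with 169 RPM per kb, and RPS25 with 118, RPL11 with 66.5 and RPS4X with 66.0 RPM per kb also stood high. The median member had 7.85 RPM per kb, against 3.13 RPM per kb for the 4437 other listed protein-coding genes outside mitochondria, and 51 of the 60 members lay above that second value. Only listed genes enter these medians. No listed region of a member was below 4.63 RPM, which sets a higher bound per kb for shorter genes. In RPM without regard to length, 45 of the 60 lay above the other genes' median of 15.6 RPM. By subunit the medians were 7.95 RPM per kb in 35 large subunit genes and 7.61 RPM per kb in 23 small subunit genes. Between their 25th and 75th percentiles large subunit genes covered 6.38 to 13.96 RPM per kb and small subunit genes 3.04 to 20.7 RPM per kb, so the subunits overlapped throughout. Per kilobase of coding sequence the medians were 72.7 RPM in the large and 44.1 RPM in the small subunit. With regions assigned to a further gene left out, the large over small ratio per kb of exon turned to 0.718, against 1.04 with all regions.

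**Figure D1:**
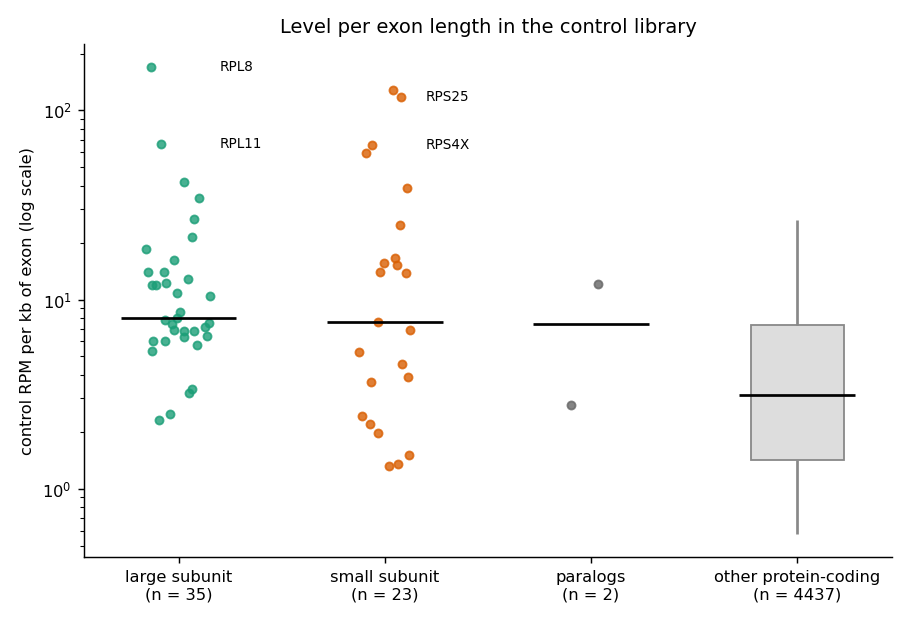
Control RPM per kilobase of exon, on a log axis, for each large subunit gene, small subunit gene and paralog (points, with the median as a line); the grey box gives the 25th to 75th percentile of the other protein-coding genes, its line the median and its whiskers the 5th and 95th percentiles. Both subunits have medians near 8 RPM per kb, above the 3.13 RPM per kb of the other genes, and RPL8 stands highest.

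In 12 members at least 1 region was also assigned to another gene, 17 regions in all, so their reads could come from either. The largest region of RPL8, with 235 of its 365 RPM, was shared with the microRNA gene MIR6850. RPL28 and RPL10A shared regions of 14.01 and 9.39 RPM with the microRNA genes MIR6805 and MIR7111. Small nucleolar RNA (snoRNA) genes inside introns shared regions with RPL23 (SNORA21, 51.4 RPM), RPSA (SNORA62, 20.8 RPM), RPL17 (SNORD58B, 7.93 RPM) and RPL13A (SNORD33, 5.95 RPM). Both regions of RPL26 and all 3 of RPL32 were shared with the unnamed genes ENSG00000263809 and ENSG00000289809. The region of RPL35 was shared with WDR38 (32.8 RPM), and that of RPS10 with the readthrough gene RPS10-NUDT3 (4.63 RPM). In the annotation 22 members host a snoRNA in total, and their median of 7.71 RPM per kb stood beside 9.09 RPM per kb in the 38 others.

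Under both deprivations every member was at least 2-fold lower than in the control library, as was almost every other gene, with values scaled to all reads of a library. In the glucose-deficient over control comparison all 60 members were lower on the log2(RPM + 1) scale, against 99.9% of the 5931 genes that reached 1 RPM in at least 1 of the compared libraries. In the glutamine-deficient over control comparison all 60 were lower as well, against 99.9% of 5928 genes. Every listed region of a member had at least 17 control fragments (4.63 RPM). A member at 0 fragments in a deprived library was therefore bound to be called lower on this scale. The members' median log2 ratio was -5.05 in each, beside -3.92 over all genes in the glucose and -3.93 in the glutamine comparison. A gene at 0 fragments has a ratio that follows its control level, and the members had higher control levels than most genes, so nothing is read from that gap. The size of the common difference depended on the scaling to all reads, of which the ATF4 family took the share given above. When library totals were taken without that family and the offset was kept, 2 members were lower under glucose deficiency and 5 under glutamine deficiency, while 38 and 29 were higher, and the median log2 ratio turned to 1.24 and 0.99. That scaling multiplies the offset, so members at 0 fragments take values of many RPM. No share over all genes is given for it, so nothing particular to the members is read from these counts. When the offset was taken off as well, 0 members in either comparison had an interval that lay wholly beyond 2-fold. Summed over the members, the share of the remaining fragments was 0.453 of the control share (0.277 to 0.700) under glucose deficiency. Under glutamine deficiency it was 0 (up to 0.0749). All other listed genes outside the ATF4 family had 0.394 and 0.0472, so a share below that of the control was common to listed genes.

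**Figure D2:**
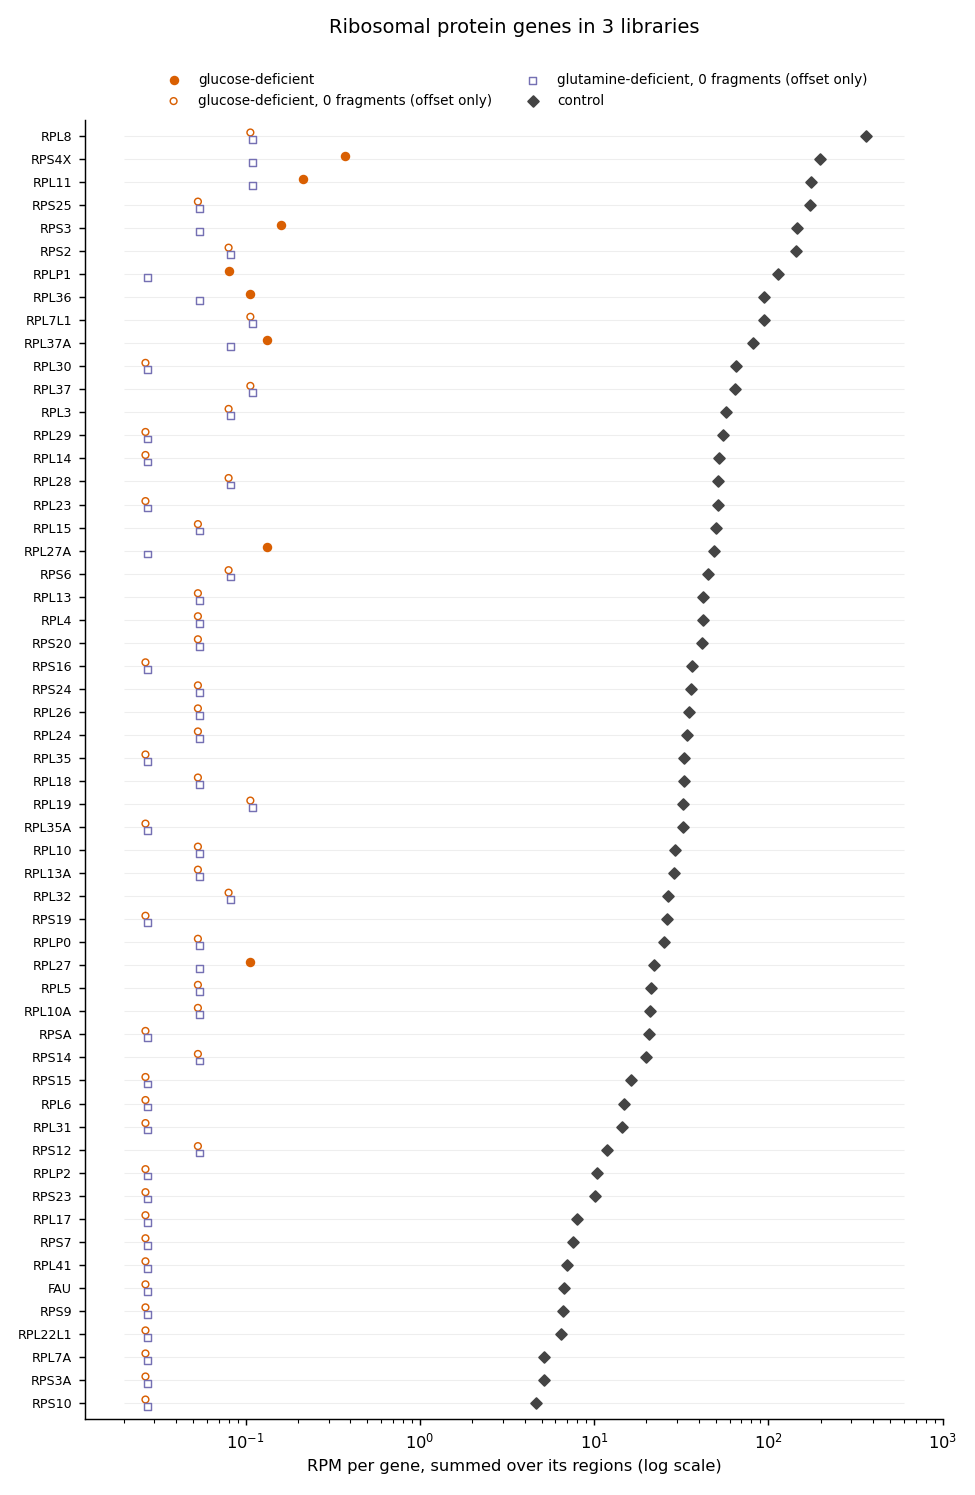
RPM of 56 of the 60 ribosomal protein genes, on a log axis, under glucose deficiency (circles), under glutamine deficiency (squares) and in the control library (diamonds), ordered by control level; open symbols mark 0 fragments, where the value is the authors' offset alone. The control values shown run between 4.63 and 365 RPM, while the highest glucose-deficient value is 0.373 RPM and the highest glutamine-deficient value 0.109 RPM.

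In the glucose-deficient library 11 of the 60 members still had fragments, 20 in all, with a Poisson interval of 12.2 to 30.9. Across all genes 9.07% had at least 1 fragment there. The members with fragments had a median control level of 94.9 RPM, and the 49 at 0 fragments one of 29.2 RPM. The fragments fell in 13 regions, 9 of which held 1 fragment each.

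RPS4X kept the most. It had 0.373 RPM (5 fragments) under glucose deficiency, 0.109 RPM (0 fragments) under glutamine deficiency and 197 RPM (742.5 fragments) in the control library. Counted in fragments it was 737-fold lower under glucose deficiency, with an interval of 315 to 2279, and at least 1198-fold lower under glutamine deficiency. All 5 fragments lay in 1 of its 4 regions, the one with 97.3 RPM in the control library. The glucose-deficient value was above the floor of 3 fragments, and the glutamine-deficient one was not detectable.

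Among the large subunit genes, RPL11 had 0.213 RPM (2 fragments), 0.109 RPM (0) and 177 RPM (667 fragments) in the glucose-deficient, glutamine-deficient and control libraries, a 1656-fold difference under glucose deficiency (457 to 13700). RPL27A had 0.133 RPM (2 fragments), 0.0273 RPM (0) and 48.9 RPM (184.5 fragments) in the same order, a 458-fold difference (125 to 3820). RPL27A was the lower of them in the control library and kept as many fragments as RPL11, a number too small to rank them.

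In the small subunit RPS3 kept 2 fragments as well, with 0.160 RPM in the glucose-deficient, 0.0546 RPM in the glutamine-deficient and 146 RPM in the control library, and was 1368-fold lower under glucose deficiency (377 to 11322). RPLP1, RPL36, RPL37A and RPL27 of the large subunit kept 1 fragment each and had 0.0799, 0.107, 0.133 and 0.107 RPM in the glucose-deficient library, against 113, 94.9, 81.8 and 21.9 RPM in the control library. The interval of RPS3 overlaps those of RPS4X, RPL11 and RPL27A.

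RPL8, with more control fragments than RPS4X, kept none. It had 0.107 RPM in the glucose-deficient, 0.109 RPM in the glutamine-deficient and 365 RPM in the control library, with 0 fragments in either deprived library against 1378.5 in the control. It was at least 2281-fold lower under glucose deficiency and at least 2224-fold lower under glutamine deficiency. Per 1000 control fragments the glucose-deficient intervals overlap, 2.18 to 15.8 for RPS4X and 0 to 2.68 for RPL8, and that of RPL8 holds the 1.35 of all other listed genes. RPS25, RPS2 and RPL7L1, also among the 10 highest, had 0 fragments in either deprived library and were at least 1090-, 899- and 589-fold lower under glucose deficiency. At the low end RPS10 could be shown to be only at least 28.1-fold lower under glucose deficiency and 27.4-fold lower under glutamine deficiency, since it had few control fragments. These bounds set 0 fragments to a floor of 3 per library and leave out the counting error of the control.

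**Figure D3:**
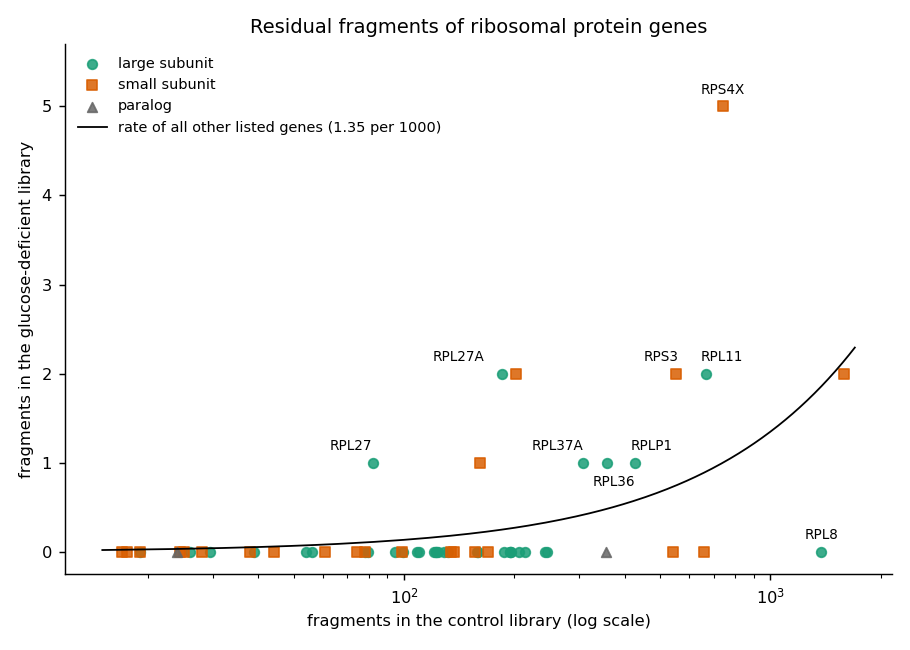
Fragments of each ribosomal protein gene in the glucose-deficient library against its fragments in the control library (log axis), by subunit; the line is the rate of all other listed genes, 1.35 per 1000 control fragments. RPS4X stands above the line with 5 fragments, 10 other genes have 1 or 2, and RPL8 lies at 0.

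No member had a fragment in the glutamine-deficient library, against 0.776% of all genes with at least 1. For all 60 together 0 fragments set a limit of 0.164 RPM, while the 20 glucose-deficient fragments amount to 1.07 RPM (0.651 to 1.65). No member reached 1 RPM in either deprived library, so the glucose-deficient over glutamine-deficient comparison held 16 genes and no member, and 18.8% of those 16 were at least 2-fold higher under glucose deficiency. Without that filter none of the 60 members was 2-fold apart on the log2(RPM + 1) scale, where 1 RPM is added to values of at most 0.373 RPM, and of 5928 genes 0.0506% were. RPS4X, at 5 against 0 fragments, was the widest apart.

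A share that needs no library total is the number of fragments found per 1000 control fragments. In the glucose-deficient library the members had 1.55 (exact conditional binomial interval 0.947 to 2.40), and all other listed genes outside the ATF4 family had 1.35 (1.27 to 1.43). At the rate of the other genes 17.4 fragments would have come from the members, and 20 were found. Without RPS4X the members had 1.23 (0.691 to 2.04). Genes listed in both blocks alone gave 1.10 (1.03 to 1.18) for the others, because NOL4L, LINC02432 and LINC00343, listed for glucose only, hold the rest. Against either value the members' interval includes that of the others, so no difference was detectable at this depth.

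In the glutamine-deficient library the members had 0 (up to 0.286) per 1000 control fragments, and all other listed genes had 0.180 (0.152 to 0.213). At that rate 2.32 fragments would have come from the members, and 0 were found, which is within counting error. Other protein-coding genes outside mitochondria had 0.0729 per 1000 in the glutamine-deficient and 1.35 in the glucose-deficient library.

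By subunit the glucose-deficient library had 12 fragments of small subunit genes, 2.15 per 1000 control fragments (1.11 to 3.77), and 8 of large subunit genes, 1.15 per 1000 (0.497 to 2.27). RPS4X supplied 5 of the 12. The intervals overlap, so a difference between subunits was not detectable. With the ATF4 family out of the totals, the members' summed share of the remaining fragments was 0.453 of the control share under glucose deficiency (0.277 to 0.700), beside 0.394 for all other genes (0.371 to 0.419). Under glutamine deficiency it was 0 (up to 0.0749), beside 0.0472 for the others (0.0399 to 0.0558). For no member did the whole interval of this ratio lie beyond 2-fold in either direction in either library.

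**Figure D4:**
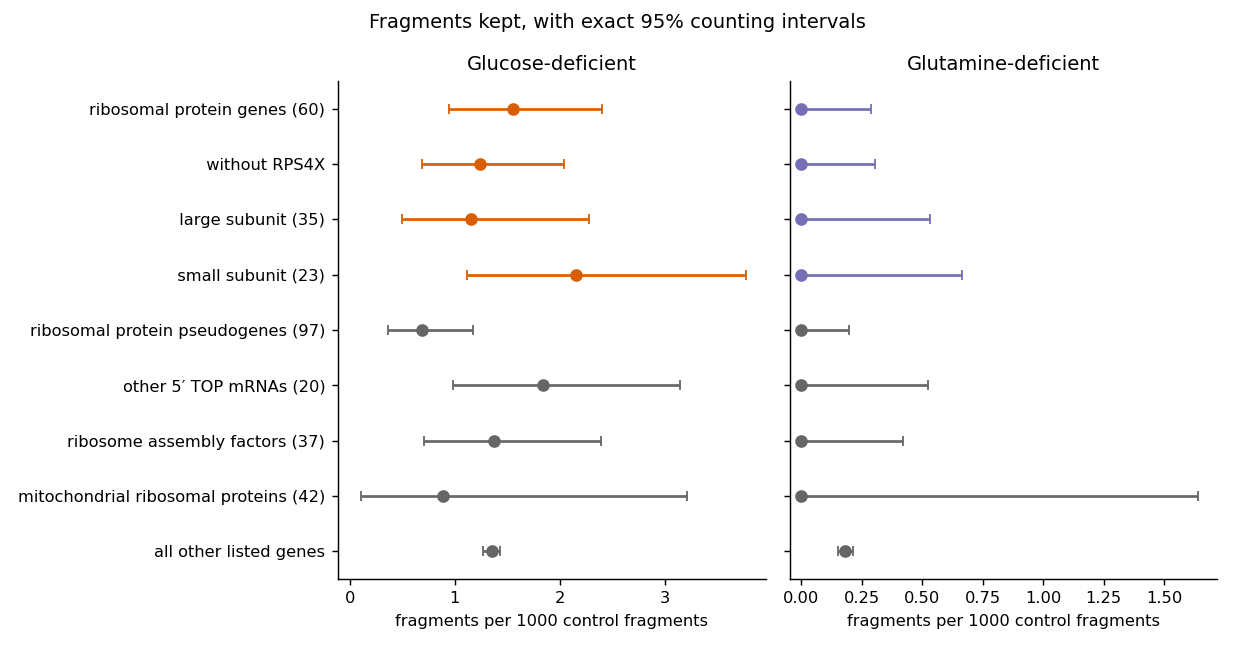
Fragments found under glucose deficiency (left) and under glutamine deficiency (right) per 1000 control fragments, for the ribosomal protein genes, their subunits, their pseudogenes, related gene lists and all other listed genes; bars are exact 95% counting intervals. The members' 1.55 lies beside 1.35 for all other genes under glucose deficiency, and their 0 beside 0.180 under glutamine deficiency.

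Processed pseudogenes of the ribosomal proteins were listed beside the genes. With all regions counted, the copies together were above the gene for most members with a copy, but not with regions shared with other genes left out. There were 97 pseudogenes, 71 copies of members and 26 copies of the subunit genes not analysed here. The median pseudogene had 27.0 RPM in the control library, and the median member 33.5 RPM. With each region counted once, the 71 copies of members had 3599 RPM, beside 3324 RPM of the 58 members of the subunits. Of the 58 members of the subunits, 40 had a pseudogene in the table, and in 29 of these the copies together were above the gene. The median ratio of copies to gene over those 40 was 2.22, with extremes of 0.154 and 18.6. Of the 20 subunit genes not analysed here, 19 had a pseudogene in the table. The copies' regions were often assigned to a host gene too, in 42 of 97 pseudogenes. With such regions left out the 71 copies had 1969 RPM, below the 3324 RPM of the genes with all their regions. Copies were then above the gene in 18 of the 40 members with a copy.

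The highest was RPL36AP37, a copy of RPL36A inside PLEKHA7 on chromosome 11, at 375 RPM in the control library and 2 fragments in the glucose-deficient library. Its coding stretch is 100% identical to that of RPL36A. RPL32P18, inside NUDCD3 on chromosome 7, had 313 RPM in the control library, 11.7 times the 26.7 RPM of RPL32. The copies of RPS2 had 392 RPM together against 144 RPM of RPS2, and 241 RPM of the copies' level lay in RPS2P5, inside TAOK3 on chromosome 12. The regions of RPL36AP37, RPL32P18 and RPS2P5 were each also assigned to the host gene. RPS3A, at 5.16 RPM among the 5 lowest members, had copies with 95.7 RPM. RPL8 was the reverse, with 63.6 RPM in its copies against 365 RPM. RPS4X and its 7 copies had similar levels, 197 RPM and 188 RPM, and no copy of RPL11, RPS25 or RPLP1 was analysed here.

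The 97 copies had a median identity of 97.2% to the coding sequence of the parent gene, and 73 reached 95% or more. In 38 of them at least 1 stretch of 150 coding bases, the read length in the labels, occurred letter for letter, so a read from it fits gene and copy alike. The other 59 held no such stretch, RPL32P18 among them, while RPS2P5 held 17.7% of those of RPS2. The first 150 coding bases of RPL32 and RPS2 (GENCODE release 29) follow with the aligned bases of the highest copy of each, and capitals mark the bases that differ, 3 in the first pair and 2 in the second.
RPL32: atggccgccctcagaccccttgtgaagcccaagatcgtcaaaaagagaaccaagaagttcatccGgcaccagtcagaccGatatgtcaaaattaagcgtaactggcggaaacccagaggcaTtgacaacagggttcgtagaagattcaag
RPL32P18: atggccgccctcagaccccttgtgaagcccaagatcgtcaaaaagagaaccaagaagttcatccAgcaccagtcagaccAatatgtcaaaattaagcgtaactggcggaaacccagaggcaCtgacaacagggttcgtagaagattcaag
RPS2: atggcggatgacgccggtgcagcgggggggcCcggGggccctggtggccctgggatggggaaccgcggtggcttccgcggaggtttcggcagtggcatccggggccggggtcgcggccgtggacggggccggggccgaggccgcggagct
RPS2P5: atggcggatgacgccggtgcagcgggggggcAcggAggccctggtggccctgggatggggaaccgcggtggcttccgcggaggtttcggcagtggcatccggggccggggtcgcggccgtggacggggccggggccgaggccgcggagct
No source used here states how the authors' alignment shared reads between such sequences. Levels of members with near-identical copies are therefore uncertain, and which of the sequences gave the reads was not tested.

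**Figure D5:**
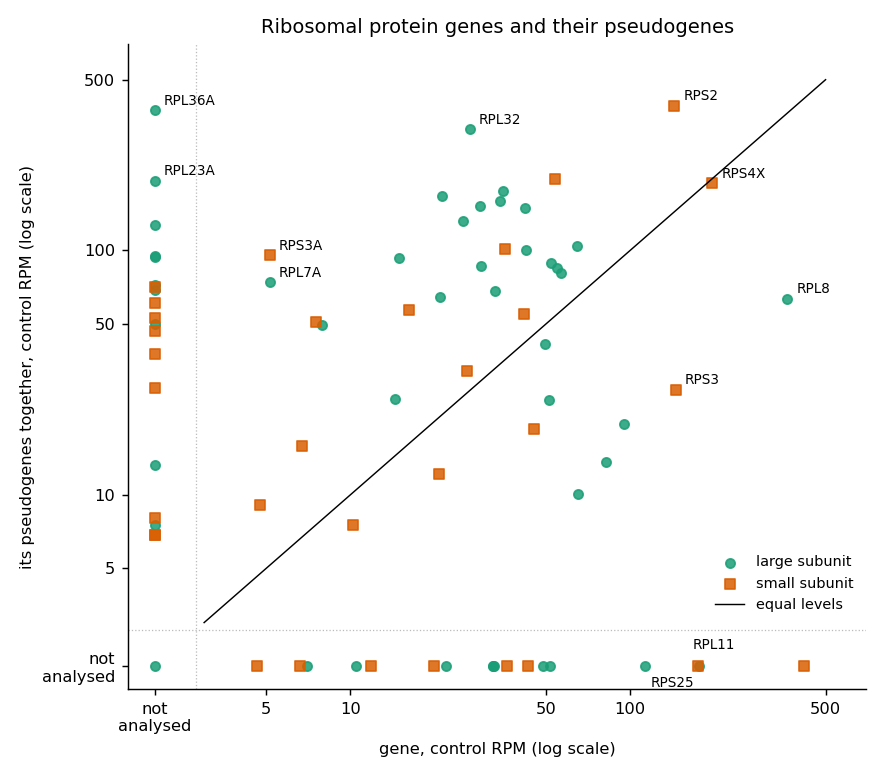
Summed control RPM of the pseudogenes of each subunit gene against the control RPM of the gene itself, both on log axes; the line marks equal levels, and genes or copies not analysed here stand in the margins. Regions of copies that are also assigned to another gene are included. In 29 of 40 genes with both, the copies lie above the line, with RPL32, RPS3A and RPL7A far above it and RPL8 and RPS3 below.

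Under deprivation the copies, too, had few fragments. In the glucose-deficient library they had 13 fragments, 0.687 per 1000 control fragments (0.366 to 1.18), beside 1.55 (0.947 to 2.40) for the genes, and the intervals overlap. The copies' interval lay below that of all other listed genes, which include the copies (1.35, 1.27 to 1.43), and overlapped that of other genes listed in both blocks (1.10, 1.03 to 1.18). RPS28P7 had 3 of these fragments; RPL36AP37, RPL32P18, RPS2P5 and RPS4XP11 had 2 each; RPL26P19 and RPL35P5 had 1 each. In the glutamine-deficient library the copies had 0 fragments, as the genes did, which allows up to 0.195 per 1000 control fragments.

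Genes that work with the ribosomal proteins were all at least 2-fold lower too. Every listed gene of the following groups was lower in both comparisons, beside 99.9% of all genes, and none had a fragment in the glutamine-deficient library. The glutamine-deficient RPM given for these groups are therefore the authors' offset alone, summed over a gene's regions, and not measured levels. Their glucose-deficient RPM hold the same offset besides the fragments. Of 22 other mRNAs with a known 5′ TOP, 20 were listed and 5 had glucose-deficient fragments, beside 9.07% of all genes. Such counts also follow the control level, for which the rate per 1000 control fragments allows. EEF2, the elongation factor that moves the ribosome along, had 0.559 RPM (6 fragments) under glucose deficiency, 0.246 RPM under glutamine deficiency and 662 RPM in the control library. RACK1, a scaffold on the small subunit, had 0.346 RPM (3 fragments), 0.191 RPM and 331 RPM in the same order. NPM1, a nucleolar chaperone, had 0.0799, 0.0820 and 164 RPM and 0 fragments. PABPC1 and EIF3E kept 1 fragment each and HNRNPA1 kept 2. Per 1000 control fragments these 20 genes had 1.84 (0.978 to 3.14), near the 1.55 of the members.

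Of 51 ribosome assembly factors 37 were listed, and 7 had glucose-deficient fragments, beside 9.07% of all genes. NCL, the nucleolar RNA-binding protein nucleolin, had 0.373 RPM (3 fragments), 0.219 RPM and 515 RPM in the glucose-deficient, glutamine-deficient and control libraries. DDX21, an RNA helicase, had 0.320 RPM (1 fragment), 0.273 RPM and 280 RPM. MDN1, an ATPase that acts on large subunit precursors, had 0.692 RPM (2 fragments), 0.601 RPM and 215 RPM. NOLC1 kept 3 fragments, and NOP58, HEATR1 and EBNA1BP2 kept 1 each. The group had 1.37 per 1000 control fragments (0.707 to 2.39).

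Of 15 genes that control the translation of ribosomal protein mRNAs 11 were listed. EIF4G1, the scaffold of the cap-binding complex, had 0.373 RPM (4 fragments), 0.164 RPM and 153 RPM in the glucose-deficient, glutamine-deficient and control libraries. LARP1, the protein that binds the 5′ TOP, had 0.266 RPM (1 fragment), 0.219 RPM and 142 RPM, and EIF4EBP1, a translation repressor acted on by mTORC1, had 0.133 RPM (1 fragment), 0.0820 RPM and 67.0 RPM. The group had 3.001 per 1000 (1.10 to 6.54), from 6 fragments. In ribosome quality control 11 of 17 genes were listed, led by RACK1, GIGYF2 and EDF1 (331, 82.4 and 64.0 RPM in the control library), and RACK1 and TCF25 kept fragments. MDM4 and MDM2, of the cell's response to free ribosomal proteins, had 36.8 and 24.99 RPM in the control library and 0 fragments in either deprived library.

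Mitochondrial ribosomal proteins, which build the separate ribosome of that organelle and are coded in the nucleus, were listed in 42 of 81 cases. Their median control level was 10.3 RPM and 3.91 RPM per kb of exon, against 33.5 RPM and 7.85 RPM per kb for the 60 cytosolic members. MRPS25, MRPL37 and DAP3 led with 71.1, 65.2 and 35.2 RPM in the control library. MRPL37 and MRPS26 kept 1 glucose-deficient fragment each, so the group had 0.888 per 1000 control fragments (0.107 to 3.21). Its interval holds the 1.55 of the cytosolic members.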

How the data were processed

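Per the labels' protocols, RNA bound by DAMER from lysates of 95D cells was depleted of ribosomal RNA and sequenced as paired reads of 150 bases, 1 library per culture. HISAT2 2.0.5 and the build hg38 are named by the submitters' processing notes. Region calling, annotation, use of strand and treatment of reads with several places: not given in the sources used here. Because the description of the glutamine-deficient sample points to the column for glucose, the mapping was taken from that sample's own file, whose values equal the glutamine column.

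The deposited values are RPM per region, per the file headers, and hold an offset of 0.5 fragment that is visible in the values. Fragments were recovered from their fixed steps of 0.0533 RPM (glucose-deficient), 0.0546 RPM (glutamine-deficient) and 0.264 RPM (control). Rounded to the nearest 0.5 fragment, whole fragments made up 99.96% of values in the first library, 99.97% in the second and 63.3% in the control. Below 1000 RPM no value lay further than 0.00324 fragment from such a step. The design had assumed either RPM or counts and used the RPM form.

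A gene's value is the sum of its regions. The main ratio is on the log2(RPM + 1) scale, where differences of low genes come out too small, and genes that reached 1 RPM in at least 1 compared library counted as higher or lower past a ratio of 2. Folds of named genes are of fragments per library total, without the offset, and intervals are exact conditional binomial or Poisson intervals at 95%. Intervals and floors cover counting error only, since no molecular identifiers are described. A count test would need replicates and was not run. Regions with equal values in overlapping genes were treated as shared and counted once in sums over gene groups. The 691 entries of each block that name no gene were left out of the gene comparisons.

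Exon and coding lengths, coordinates and transcripts came from GENCODE release 29, with exon length the union of all annotated exons and coding length the longest annotated coding sequence. Pseudogenes were matched by gene identifier to the gene name table and aligned to the parent's principal coding sequence with Biopython 1.88. Starts came from RefSeq promoter windows of GRCh38.p14. The steps ran in Python 3.11.15 with scipy 1.17.1, numpy 2.4.6, pandas 2.3.3 and matplotlib 3.10.9. Fragment recovery, calls and intervals were tested on simulated data with whole control fragments and most genes unchanged. That test did not cover libraries in which most genes have no fragment.

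The members, gene lists and tests were chosen with earlier results of these data known. Genes are named where they have a fragment in a deprived library, are among the 10 highest or 5 lowest members in the control library or the 5 highest per kb, share a region, or are among the 3 highest of another list. The pseudogenes, the genes not analysed, and RPL7A as the longest pyrimidine run, were chosen after their values were seen. A few genes that this rule names are not reported here.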

Additional observations from a re-analysis of the deposited data

How the results depend on the processing

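All 60 members stayed at least 2-fold lower in both comparisons with a pseudocount of 0.1 RPM, without the filter and with the offset taken off, and 58 did with a pseudocount of 5 RPM. With shared regions left out the count was 52, since members whose every region is shared drop out. With library totals taken without the ATF4 family and the offset kept, 2 members were lower under glucose deficiency and 5 under glutamine deficiency, while 38 and 29 were higher. The median log2 ratio then turned to 1.24 and 0.99, and 9 members were higher in the glucose-deficient than in the glutamine-deficient library, against 0 in the main comparison. By construction this scaling multiplies the offset, so members at 0 fragments take values of many RPM. No share over all genes is given for it, so nothing particular to the members is read from these counts. In the same scaling with the offset taken off, chosen after seeing the data, 0 and 0 members had the whole interval beyond 2-fold. For all other genes the fragments per 1000 control fragments were 1.59 under glucose deficiency with shared regions left out and 1.10 with genes of both blocks only, and 0.0729 under glutamine deficiency with other protein-coding genes; the cause was not tested for the first of these. The members' own value moved within its interval. The large over small subunit ratio of 1.04 per kb of exon was 1.65 per kb of coding sequence and 0.718 with shared regions left out, where the order of the subunits turns. No paired analysis was possible because each group has 1 library, and for the same reason no library could be left out. Depth limits the deprived values: 0 fragments in a library of 18301607 allow 0.164 RPM, and most members with glucose-deficient fragments rest on 1 or 2.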
